A study of Mus musculus with 8 samples.

Results

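This account concerns 10 mouse genes of the guanylin axis and of epithelial anion and sodium exchange, out of 39179 genes in a table of RNA sequencing counts. They were taken by name: the ligands Guca2a and Guca2b, their receptor Gucy2c, the chloride channel Cftr, the anion exchangers Slc26a3 and Slc26a6, the sodium/proton exchangers Slc9a2 and Slc9a3, and the cotransporters Slc12a2 and Slc4a4. All 10 were among the 18345 genes with enough counts to be tested. The study set 3 libraries of small intestine against 5 libraries of small intestinal adenoma. All animals were on an inbred C57BL6/J background and carried VilCreER, a tamoxifen-inducible Cre recombinase driven by the villin promoter and so limited mainly to gut epithelium, and all tissue had undergone tamoxifen-induced recombination in vivo. The control group, called wild type here, was VilCreER+ with no floxed Apc allele, and the adenoma group was VilCreER+ APCfl/+, with 1 floxed Apc allele. The series describes the adenomas as having developed in aged mice and the wild-type tissue as whole intestine. The labels give neither an age per library nor whether each library came from a separate mouse, so p-values measure the spread between these libraries, which may be partly technical.

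The guanylins are small peptides that enterocytes, goblet cells and other epithelial cells release into the gut lumen, where they bind the receptor guanylyl cyclase C and raise cyclic GMP in the epithelium. Cyclic GMP acts through the kinase PKG2 to open the apical chloride and bicarbonate channel CFTR and to hold back sodium uptake through the exchanger NHE3, so that salt and water move toward the lumen. In the small intestine chloride enters secreting crypt cells from the blood side through the NKCC1 cotransporter and leaves through CFTR, while absorbing villus cells couple sodium/proton exchange to chloride/bicarbonate exchange. Loss of guanylin expression is a known feature of intestinal tumours.

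The guanylin genes are neighbours on chromosome 4 (GRCm38, GENCODE M21). Guca2a (119637704 to 119639471, plus strand) and Guca2b (119656607 to 119658954, minus strand) point toward each other, are 17135 bases apart and have no annotated gene between them. Their promoters are shown because they belong to the most abundant ligand and its neighbour. That of Slc26a3 is shown because it was the only one of the 10 genes to pass a test for a change beyond a factor of 2. Together these promoters hold most of the motif matches found among the 10. The bases are the reference sequence from RefSeq on GRCm38.p6, written 5′ to 3′ on the strand of the gene, and capitals mark the matches. The runs of the guanylin genes end where the GENCODE gene begins, and the RefSeq start of Slc26a3 lies inside the GENCODE gene, which has a further start upstream.
Guca2a, chr4:119637482-119637703, plus strand: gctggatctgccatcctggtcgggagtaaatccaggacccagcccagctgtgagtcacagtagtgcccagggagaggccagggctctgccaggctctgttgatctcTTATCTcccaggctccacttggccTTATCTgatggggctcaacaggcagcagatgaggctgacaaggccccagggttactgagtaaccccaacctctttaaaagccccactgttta
Guca2b, chr4:119658955-119659195, minus strand: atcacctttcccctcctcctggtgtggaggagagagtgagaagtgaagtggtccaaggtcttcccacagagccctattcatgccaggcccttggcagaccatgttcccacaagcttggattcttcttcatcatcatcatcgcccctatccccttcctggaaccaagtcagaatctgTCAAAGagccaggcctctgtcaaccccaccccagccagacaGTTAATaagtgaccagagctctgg
Slc26a3, chr12:31437969-31438218, plus strand: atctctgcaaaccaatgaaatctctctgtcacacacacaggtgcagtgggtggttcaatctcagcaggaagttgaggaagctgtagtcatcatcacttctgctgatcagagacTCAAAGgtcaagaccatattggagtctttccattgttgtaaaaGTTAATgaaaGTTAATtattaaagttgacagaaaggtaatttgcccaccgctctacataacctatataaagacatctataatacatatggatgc

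Of the 10 genes, 7 had a promoter that was read for motifs, in the 250 bases before the RefSeq start and on both strands. The CDX motif was searched as TTTATG, the HNF1 half-site as GTTAAT, the TCF/LEF motif as CTTTGA, the HNF4 half-site as CAAAGT and the GATA motif as AGATAA. The capitals in Guca2a are 2 matches to the GATA motif on the opposite strand, 144 and 120 bases before the start. Those in Guca2b are 1 match to the HNF1 half-site, 33 bases before the start, and 1 to the TCF/LEF motif on the opposite strand, 74 bases before it. Those in Slc26a3 are 2 matches to the HNF1 half-site, 94 and 84 bases before the start, and 1 to the TCF/LEF motif on the opposite strand, 137 bases before it. The first promoter window of Slc4a4 held the HNF4 half-site once, 176 bases before the start, and no match was found in Cftr, Slc26a6 or Slc9a3. Single matches of this kind are common: of 32851 promoter windows of the same length, 10.8% held the CDX motif, 6.43% the HNF1 half-site, 13.8% the TCF/LEF motif, 12.6% the HNF4 half-site and 9.99% the GATA motif. Read on the opposite strand, the TCF/LEF motif can overlap the HNF4 half-site. A match is a run of letters and was not tested as a binding site.

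Total counts ran from 18040301 to 28343915 per library. Apc itself read 191 to 211 CPM (counts scaled to a common library size, edgeR's TMM) in wild type and 132 to 159 in adenoma, a log2 difference of -0.45 ± 0.09 (SE; adjusted p = 0.00374, edgeR). Adenoma library 2 stood apart. Its 10 mature enterocyte markers summed to 85.7 CPM, against 6599 to 13415 in the other adenomas and 21705 to 34873 in wild type. The hindgut genes Hoxb13 and Car1 read 245.5 and 157 CPM there and at most 0.894 and 0.536 elsewhere, and Gata4, a small intestinal factor, read 0.470 CPM against 68.4 to 84.4 in the other adenomas. Its label says small intestinal adenoma, and these markers go against that label, so its tissue of origin is in doubt. It is kept in every mean over 5 adenomas, and values are given with and without it where it moves a result. By Xist and Ddx3y, the 3 wild-type libraries and adenoma 1 had a male pattern and adenomas 2 to 5 a female one, so that sex is largely bound up with the groups. A fit with the sex pattern as a covariate therefore takes its group effect from adenoma 1 alone against the 3 wild types. A call lost in that fit does not tell sex from the smaller number of libraries. Pancreatic acinar markers summed to 863 CPM in wild type 1 and 694 in adenoma 5, against at most 4.90 in the other wild types. In the other adenomas 1 gene of the list, Cela1, gave nearly all of the 93.5 to 132 CPM, and Pnlip, Cpa1, Cel, Ctrb1, Prss2 and Try4 were each at most 0.892 CPM.

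Of the 10 genes, 4 were lower in adenoma at an adjusted p below 0.05 (edgeR quasi-likelihood test, adjusted over all 18345 genes), none was higher (1 at an unadjusted p below 0.05; 0 with DESeq2 and 1 with limma-voom), and 6 did not pass. The background is high: 27.8% of all tested genes were called lower and 30.3% higher, so a share of this size is common in the table. The 4 were Guca2b, Gucy2c, Slc26a3 and Slc9a2. Cftr, Slc9a3, Slc12a2 and Guca2a had overlapping groups; the first 3 of these had the higher mean in adenoma, a direction that turned for Cftr and Slc12a2 when libraries were scaled on pan-epithelial markers, and for Slc9a3 when adenoma 2 was left out as well. Of those 10 markers 6 were themselves called higher in adenoma and 1 lower, among them Krt18 at 131 to 185 CPM in wild type and 552 to 1142 in adenoma. Their sum was 6196 to 6956 CPM in wild type, 5727 in adenoma 2 and 7908 to 10180.2 in the other adenomas, whose values this scaling therefore lowers. A change beyond a factor of 2 was called for 1 of the 10, Slc26a3, and by this stricter test (glmTreat) 7.52% of all genes were called lower and 5.66% higher. In 6 of the 10 genes every adenoma lay below every wild type, a pattern seen in 27.6% of all genes. No member had every adenoma above, against 29.3% of all genes. The median log2 fold change of the 10 was -1.10, beside 0.04 over all tested genes. Without adenoma 2, 6 of the 10 were lower and 1, Cftr, was higher, where 33.5% and 34% of 18195 genes were called lower and higher.

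**Figure D1:**
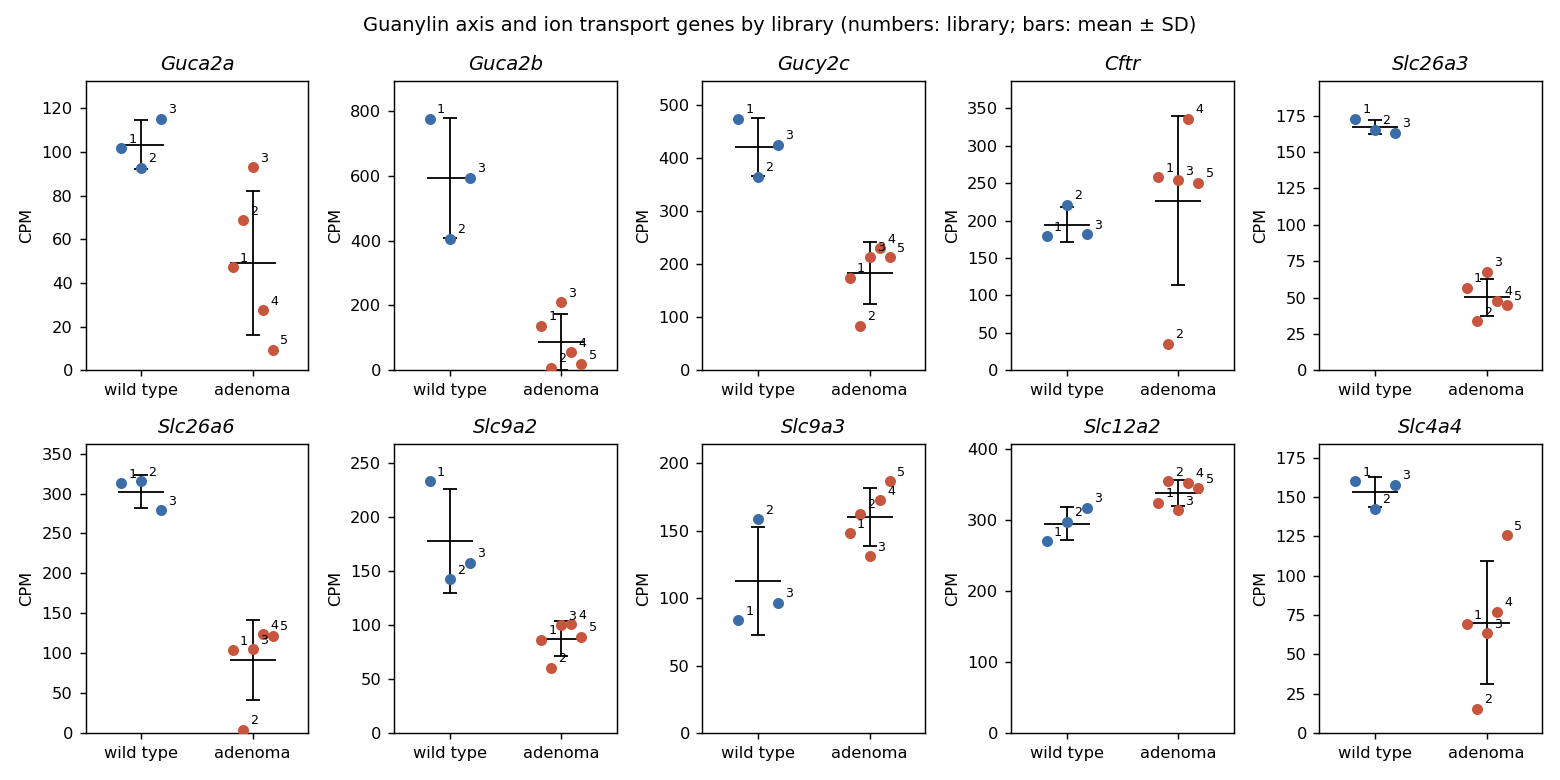
Level of each of the 10 genes in CPM (y axis, from 0) in the 3 wild-type (blue) and 5 adenoma (red) libraries, with library numbers beside the points and horizontal bars with whiskers for mean ± SD. Guca2b, Gucy2c, Slc26a3, Slc26a6, Slc9a2 and Slc4a4 show no overlap between groups, and adenoma 2 is the lowest adenoma for 7 of the 10 genes.

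Of the ligands, uroguanylin fell and guanylin did not pass the test. Guca2b, which encodes uroguanylin, read 776, 406 and 594 CPM in wild type and 138, 7.70, 210.1, 55.3 and 19.3 CPM in adenomas 1 to 5. All adenomas were below all wild types, and they differed among themselves by a factor of 27.3 between the highest and the lowest. The mean went from 592 ± 185 (SD, n = 3) to 86.0 ± 86.0 CPM (SD, n = 5), and the log2 fold change was -2.78 ± 0.93 (SE; adjusted p = 0.0336, edgeR), or 6.88-fold lower. A drop beyond a factor of 2 did not pass (adjusted p = 0.164, glmTreat). The call is fragile: leaving out any 1 wild-type library, adenoma 4 or adenoma 5 gave adjusted p-values of 0.0535 to 0.0872 in edgeR, while without adenoma 2 the log2 fold change was -2.50 (adjusted p = 0.0384). With the sex pattern as a covariate, and so from adenoma 1 alone, it was -2.11 ± 1.75 (SE) and was not called.

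Guca2a, which encodes guanylin, read 102, 92.9 and 115 CPM in wild type and 47.3, 68.7, 93.0, 27.6 and 9.48 CPM in adenomas 1 to 5. Adenoma 3 was level with wild type 2 and adenoma 5 was the lowest, so the groups met at their edges. The mean was 103 ± 11.3 CPM (SD, n = 3) in wild type and 49.2 ± 33 CPM (SD, n = 5) in adenoma, and the log2 fold change was -1.07 ± 0.60 (SE; adjusted p = 0.158, edgeR). No alternative setting brought it past the threshold. The log2 ratio of Guca2a to Guca2b within a library was -2.93, -2.13 and -2.36 in wild type and -1.54, 3.14, -1.18, -1.0 and -1.02 in adenoma. Every adenoma lay above every wild type, and adenoma 2 was the only library with more Guca2a than Guca2b counts. The difference in means was 2.15, with an exact two-sided permutation p of 0.0357, the smallest that 56 arrangements can give, and 0.0714 after Benjamini-Hochberg adjustment over the 4 ratios examined. Without adenoma 2 it was 1.29, with the other 4 adenomas still above wild type.

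Marker levels of several cell types also differed between the groups. The 10 mature enterocyte markers were lower in sum in every adenoma (6599 to 13415 CPM outside adenoma 2), with 5 of the 10 called lower and none at 0 counts in any library. Alpi went against the sum, with 355 to 751 CPM in wild type and 1024, 1058, 1997 and 2377 CPM in adenomas 1, 3, 4 and 5, and Mep1a was higher in adenoma 2 (30.2 CPM) than in the other adenomas (8.60 to 17.1). Goblet markers summed to 8129 to 14343 CPM in wild type and 3384 to 7401 in adenoma, with 4 of 8 called lower and 3 higher. Of 9 enteroendocrine markers 8 were called lower, and the sums were 254 to 358 CPM and 42.4 to 141 CPM. Paneth markers summed to 7049 to 7742 CPM and 1253 to 4260 CPM, with 4 of 7 called lower and 2 higher. Fibroblast markers stood at 1082 to 1445 CPM in wild type and 2669 to 3370 CPM in adenoma, with 5 of 6 called higher, and endothelial markers at 123 to 131 CPM and 206 to 227 CPM, with 3 of 4 called higher. The 5 crypt stem cell markers summed to 401 to 464 CPM in wild type and 172 to 423 CPM in adenoma, though 3 of the 5 were called higher. Olfm4 gave most of the wild-type sum, at 285 to 347 CPM, and read 0.376 to 151 CPM in adenoma. For Lgr5, Ascl2 and Smoc2 every adenoma was above every wild type. Smooth muscle markers stood at 904 to 1617 CPM and 415 to 1027 CPM, with 3 of 7 called lower. Leukocyte markers overlapped, at 320 to 485 CPM and 204 to 517 CPM, with 4 of 7 called lower. In tissue of this kind fewer cells of a type and less RNA per cell cannot be told apart, and the part of these cell types in the changes of the 10 genes was not tested.

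The receptor fell. Gucy2c (chromosome 6, 136697284 to 136781765, minus strand) encodes guanylyl cyclase C, and read 474, 365 and 425 CPM in wild type and 175, 83.7, 214, 229 and 213 CPM in adenomas 1 to 5. The groups did not overlap, and outside adenoma 2 the adenomas lay close together. The mean went from 421 ± 54.5 (SD, n = 3) to 183 ± 59.0 CPM (SD, n = 5), and the log2 fold change was -1.20 ± 0.29 (SE; adjusted p = 0.00682, edgeR), or 2.30-fold lower. Without adenoma 2 it was -1.03 ± 0.12 (adjusted p = 8.57e-05). Of the alternatives tried, only the sex covariate ended the call (-1.27 ± 0.53, SE), in a fit whose group effect rests on adenoma 1 alone.

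A list of cyclic GMP genes moved in both directions. It also holds other guanylyl cyclases, which do not lie downstream of the receptor. Of 17 tested, 7 were lower, 4 higher and 6 did not pass, beside 27.8% lower and 30.3% higher over all tested genes. The median log2 fold change of the list was -0.37. Among the lower genes was Gucy1a1, a subunit of the soluble guanylyl cyclase that answers to nitric oxide, with 24.6 to 30.2 CPM in wild type and 12.8 to 15.8 CPM in adenoma (log2 fold change -0.98 ± 0.11, SE). Among the higher genes were Abcc4, a membrane pump that exports cyclic nucleotides, with 13.1 to 18 and 60.6 to 103 CPM (2.29 ± 0.21), and Pde10a, a phosphodiesterase that breaks down cyclic nucleotides, with 3.11 to 4.75 and 12.9 to 25.1 CPM (2.50 ± 0.26). Prkg2, the gene of PKG2, was looked at after its values were seen: it read 166, 153 and 146 CPM in wild type and 33.5, 66.0, 46.4, 35.0 and 27.4 CPM in adenoma, with a log2 fold change of -1.90 ± 0.25 (SE; adjusted p = 4.24e-04, edgeR). Without adenoma 2, 11 of the list were called lower, where 33.5% of all tested genes were. With pan-epithelial scaling 2 were called higher, where 1694 of all 18345 tested genes were.

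Neither gene of chloride exit and entry passed the test with all 8 libraries. Cftr (chromosome 6, 18170687 to 18322768, plus strand), the apical chloride and bicarbonate channel, read 179, 221 and 182 CPM in wild type and 258, 35.4, 254, 336 and 250.4 CPM in adenomas 1 to 5. Adenomas 1, 3, 4 and 5 were above all wild types, and adenoma 2 was far below them. Over all 5 the mean was 227 ± 113 CPM (SD) against 194 ± 23.4 CPM (SD, n = 3), and the log2 fold change of 0.22 ± 0.57 (SE) did not pass (adjusted p = 0.755, edgeR). Without adenoma 2 the 4 remaining adenomas were higher, by 0.49 ± 0.13 on the log2 scale (adjusted p = 0.00856). With libraries scaled on the 10 pan-epithelial markers the call was lost: the value was -0.023 without adenoma 2 (adjusted p = 0.904), where the median of all genes was -0.48, and -0.27 with all 8 libraries (adjusted p = 0.659), where it was -0.30. Cftr overlaps an antisense gene, Gm15592, with at most 158 counts in a library, and a pseudogene, Gm15595, with at most 79, and the library kit does not keep strand.

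Slc12a2 (chromosome 18, 57878678 to 57946821, plus strand) encodes NKCC1, the basolateral cotransporter that loads secreting cells with chloride. It read 270, 297 and 317 CPM in wild type and 324, 354, 313, 352 and 345 CPM in adenoma. Adenoma 3 was below wild type 3 and the other adenomas were above, so the groups overlapped narrowly. The means were 295 ± 23.7 (SD, n = 3) and 338 ± 18.2 CPM (SD, n = 5), and the log2 fold change of 0.20 ± 0.10 (SE) did not pass (adjusted p = 0.133, edgeR), turning to -0.14 with pan-epithelial scaling and to -0.33 with that scaling and no adenoma 2 (adjusted p = 0.0641). It was the steadiest of the 10 genes across adenomas, with a factor of 1.13 between the highest and the lowest. The log2 ratio of Cftr to Slc12a2 was -0.59, -0.43 and -0.80 in wild type and -0.33, -3.32, -0.30, -0.07 and -0.46 in adenoma. The difference in means of -0.29 had an exact two-sided permutation p of 0.821, and turned to 0.31 without adenoma 2.

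Around these carriers, a list of the sodium pump, potassium channels and other chloride channels had a median log2 fold change of 0.87. Of 11 tested, 6 were higher, 4 lower and 1 did not pass, beside 30.3% higher and 27.8% lower over all tested genes. With the sex covariate, and so from adenoma 1 alone, fewer were called lower, as over all tested genes. Atp1b1, the beta subunit of the sodium pump that drives transport, fell from 791 to 1110.3 CPM in wild type to 301 to 358 CPM in adenoma (log2 fold change -1.56 ± 0.14, SE). Kcnk5, a basolateral potassium channel, went from 84.2 to 121 CPM to 22.7 to 30.8 CPM (-1.95 ± 0.14). Ano1, a calcium-activated chloride channel, went the other way, from 16.7 to 19.6 CPM to 81.7 to 149.6 CPM (2.48 ± 0.22), and was highest in adenoma 2.

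The anion exchangers were both low in adenoma, and 1 of them passed the test. Slc26a3 (chromosome 12, 31390871 to 31473917, plus strand) encodes DRA, the apical chloride/bicarbonate exchanger whose loss causes congenital chloride diarrhoea. It read 173, 165 and 163 CPM in wild type and 56.7, 33.7, 67.8, 47.9 and 44.8 CPM in adenomas 1 to 5. The groups were far apart and the spread within each was small. The mean went from 167 ± 5.05 (SD, n = 3) to 50.2 ± 12.8 CPM (SD, n = 5), and the log2 fold change was -1.74 ± 0.19 (SE; adjusted p = 1.43e-04, edgeR), or 3.33-fold lower, and the drop was beyond a factor of 2 (adjusted p = 0.00644, glmTreat). It stayed lower in all 20 alternatives, between -2.15 and -1.56, with adjusted p-values of at most 0.0164.

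Slc26a6 (chromosome 9, 108853283 to 108913049, plus strand) encodes PAT1, an apical exchanger of chloride for bicarbonate or oxalate. It read 313, 315 and 279 CPM in wild type and 103, 4.18, 105, 124 and 122 CPM in adenomas 1 to 5. All adenomas lay below all wild types, 4 of them within a narrow band and adenoma 2 far beneath. The means were 302 ± 20.4 (SD, n = 3) and 91.5 ± 49.7 CPM (SD, n = 5), and with all 8 libraries the log2 fold change of -1.72 ± 0.78 (SE) did not pass (adjusted p = 0.0898, edgeR). Without adenoma 2 it was -1.42 ± 0.10 (adjusted p = 4.38e-06). With all 8 libraries and pan-epithelial scaling it was -2.22 (adjusted p = 0.0397, edgeR). The log2 ratio of Slc26a3 to Slc26a6 was -0.86, -0.93 and -0.77 in wild type and -0.87, 2.98, -0.63, -1.37 and -1.44 in adenoma. Only adenoma 2 had more of the first than of the second. The difference of 0.59 had an exact two-sided permutation p of 1, and was -0.22 without adenoma 2.

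Other genes of the Slc4, Slc9, Slc12 and Slc26 families moved both ways, with 27 tested of 33 listed and a median log2 fold change of -0.29. Of these, 7 were higher, 10 lower and 10 did not pass, beside 30.3% higher and 27.8% lower over all tested genes. Fewer were called lower with the sex covariate, as over all tested genes. Slc26a9, a chloride channel and exchanger known from stomach and airway, had 3 counts over the 3 wild-type libraries and 1687 over the 5 adenomas, a ratio of 267 per unit of depth (exact 95% interval 91.2 to 1295.4, counting error only). It read 7.89 to 18.2 CPM across the adenomas and at most 0.111 CPM in wild type. Slc12a7, a potassium-chloride cotransporter, went from 197 to 215 CPM in wild type to 81.4 to 99.6 CPM in adenoma (log2 fold change -1.11 ± 0.09, SE). Slc4a10, a sodium-dependent bicarbonate transporter, went from 2.90 to 6.42 CPM to 0.130 to 0.402 CPM.

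Of the apical sodium/proton exchangers, 1 was lower and the other did not pass. Slc9a2 (chromosome 1, 40680574 to 40769273, plus strand) encodes NHE2 and read 233, 142 and 157 CPM in wild type and 86.3, 60.3, 99.7, 100.4 and 89.1 CPM in adenomas 1 to 5. Wild type 1 was the highest library and adenoma 2 the lowest, and the groups did not overlap. The mean went from 177 ± 48.4 (SD, n = 3) to 87.2 ± 16.3 CPM (SD, n = 5), and the log2 fold change was -1.02 ± 0.20 (SE; adjusted p = 0.00264, edgeR). With the sex covariate, and so from adenoma 1 alone, it was -1.04 ± 0.37 (SE) and was not called.

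Slc9a3 (chromosome 13, 74121457 to 74169442, plus strand) encodes NHE3, the main apical sodium uptake exchanger of the small intestine and the one that cyclic GMP restrains. It read 83.8, 158 and 96.5 CPM in wild type and 148, 163, 131, 173 and 187 CPM in adenoma. All 5 adenomas were above wild types 1 and 3, and 2 of them were below wild type 2. The means were 113 ± 39.9 (SD, n = 3) and 160 ± 21.5 CPM (SD, n = 5), and the log2 fold change of 0.51 ± 0.21 (SE) did not pass (adjusted p = 0.0676, edgeR). The value lies near the threshold. Without wild type 2 the log2 fold change was 0.84 (adjusted p = 0.00451, edgeR). With all 8 libraries it was 0.57 with no filter (adjusted p = 0.0456, edgeR) and 0.55 with limma-voom (adjusted p = 0.0472). Scaling moved it too, from -0.010 with pan-epithelial scaling and no adenoma 2 (adjusted p = 0.979) and 0.16 with pan-epithelial scaling alone (adjusted p = 0.705) to 0.61 with total counts (adjusted p = 0.0264). The log2 ratio of Slc9a3 to Slc9a2 cancels the scaling: it was -1.47, 0.16 and -0.70 in wild type and 0.78, 1.43, 0.40, 0.78 and 1.07 in adenoma, all 5 above all 3. The difference in means was 1.56, with an exact two-sided permutation p of 0.0357, the smallest possible here, and 0.0714 after adjustment over the 4 ratios. Without wild type 1 and adenoma 5, which carried acinar RNA, it was 1.12.

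**Figure D2:**
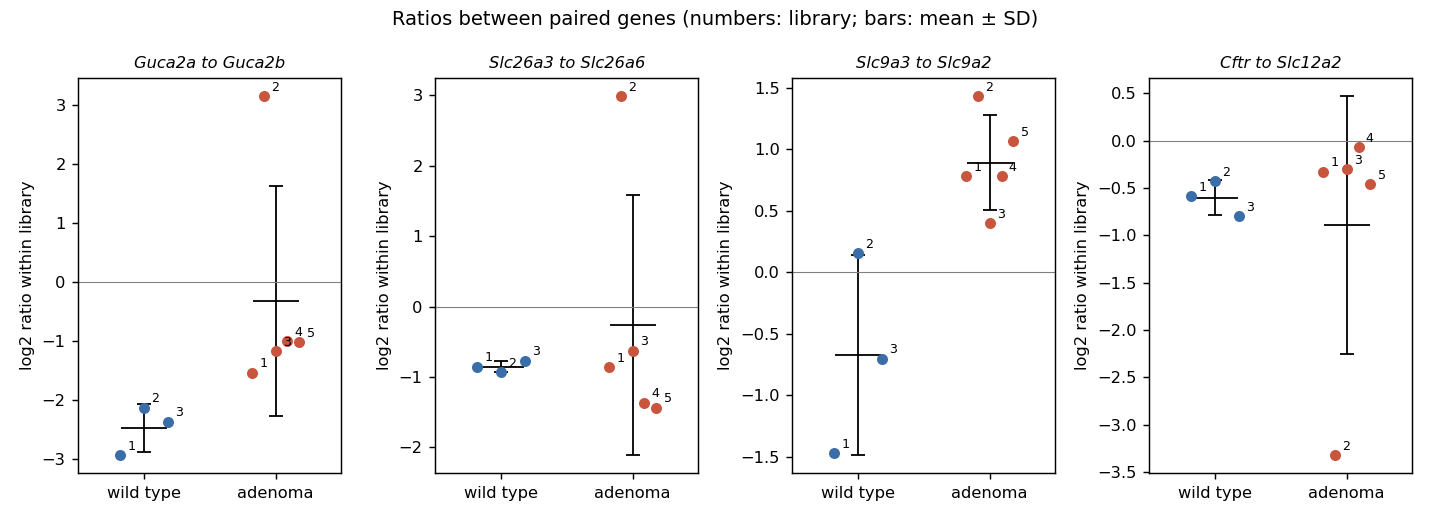
Log2 ratio of 2 genes within each library (y axis) for the pairs named above each panel, in 3 wild-type (blue) and 5 adenoma (red) libraries, with library numbers and bars for mean ± SD. For Guca2a to Guca2b and Slc9a3 to Slc9a2 every adenoma lies above every wild type, and adenoma 2 stands far from the other adenomas in all panels but that of the sodium/proton exchangers.

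Scaffolds, motors and apical traffic genes, taken as 1 list, had a median log2 fold change of -0.53. Of 12 tested, 7 were called lower, 3 higher and 2 did not pass, beside 27.8% lower and 30.3% higher over all tested genes. Fewer were called in either direction with the sex covariate, as over all tested genes. Pdzk1, a PDZ scaffold of the brush border, went from 93.7 to 165 CPM in wild type to 1.96 to 17.2 CPM in adenoma (log2 fold change -4.29 ± 0.69, SE). Pdzd3, also a PDZ scaffold, which binds guanylyl cyclase C, went from 39.0 to 48.7 CPM to 7.42 to 17.2 CPM (-1.75 ± 0.23). Ezr, which ties such scaffolds to actin, went from 663 to 816 CPM to 335 to 429 CPM (-1.01 ± 0.14). Shank2, a scaffold known to bind both NHE3 and CFTR, was higher, from 17.4 to 21.6 CPM to 25.2 to 30.8 CPM (0.53 ± 0.11), and lost this call with pan-epithelial scaling (0.17, adjusted p = 0.592). With that scaling none of the list was called higher by edgeR, also at an unadjusted p below 0.05. Slc9a3r1, the gene of the NHE3 scaffold NHERF1, was looked at after its values were seen and read 592, 414 and 505 CPM in wild type and 166, 50, 203, 156 and 132 CPM in adenoma (-1.83 ± 0.37, adjusted p = 0.00331, edgeR).

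Slc4a4 (chromosome 5, 88886818 to 89239653, plus strand) encodes NBCe1, which brings bicarbonate into the cell with sodium from the blood side. It read 160, 142 and 158 CPM in wild type and 69.0, 15.4, 63.5, 77.1 and 126 CPM in adenomas 1 to 5. All adenomas were below all wild types, with adenoma 5 near them and adenoma 2 far beneath. The means were 153 ± 9.51 (SD, n = 3) and 70.1 ± 39.3 CPM (SD, n = 5), and the log2 fold change of -1.13 ± 0.51 (SE) did not pass (adjusted p = 0.0932, edgeR). It passed without adenoma 2 (-0.88, adjusted p = 0.0112), without adenoma 5 (-1.45, adjusted p = 0.0389) and with pan-epithelial scaling (-1.56, adjusted p = 0.0188). With all 8 libraries it also passed in DESeq2 (-1.13, adjusted p = 0.0366).

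A list of kinases and regulators of transport had a median log2 fold change of -0.12. Of 12 tested, 4 were lower, 1 higher and 7 did not pass, beside 27.8% lower and 30.3% higher over all tested genes. With the sex covariate fewer were called lower, as over all tested genes. Without adenoma 2 there were 2 called higher, where 34% of all tested genes were. The calcineurin B homologues Chp1 and Chp2, partners of sodium/proton exchangers, moved in opposite directions. Chp1 rose from 129 to 168 CPM in wild type to 240 to 322 CPM in adenoma (log2 fold change 0.97 ± 0.14, SE), and Chp2 fell from 218 to 251 CPM to 50.2 to 138 CPM (-1.27 ± 0.27). Wnk1, a kinase that sets the activity of chloride cotransporters, fell from 167 to 205 CPM to 91.2 to 146 CPM (-0.72 ± 0.16). A list of receptors that drive or restrain secretion had a median of -0.24. Of 12 tested, 6 were lower, 4 higher and 2 did not pass, beside the same shares of all tested genes. The count called higher was 1 without wild type 2, with the replicate block and with pan-epithelial scaling. It was 2 without wild type 1 or wild type 3. Fewer of all tested genes were called higher in each of these fits as well. With the sex covariate fewer receptors were called in either direction, as over all tested genes. Vipr1, the receptor for the secretagogue VIP, fell from 330 to 390 CPM to 78.2 to 135 CPM (-1.71 ± 0.17). P2ry4, a nucleotide receptor, had 4.79 to 7.86 CPM in wild type, at most 0.376 CPM in adenoma and 0 counts in 3 adenomas. Lpar2, a lysophosphatidic acid receptor, rose from 2.62 to 2.89 CPM to 4.55 to 6.99 CPM (1.08 ± 0.18), and lost the call with pan-epithelial scaling (0.71, adjusted p = 0.0636).

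**Figure D3:**
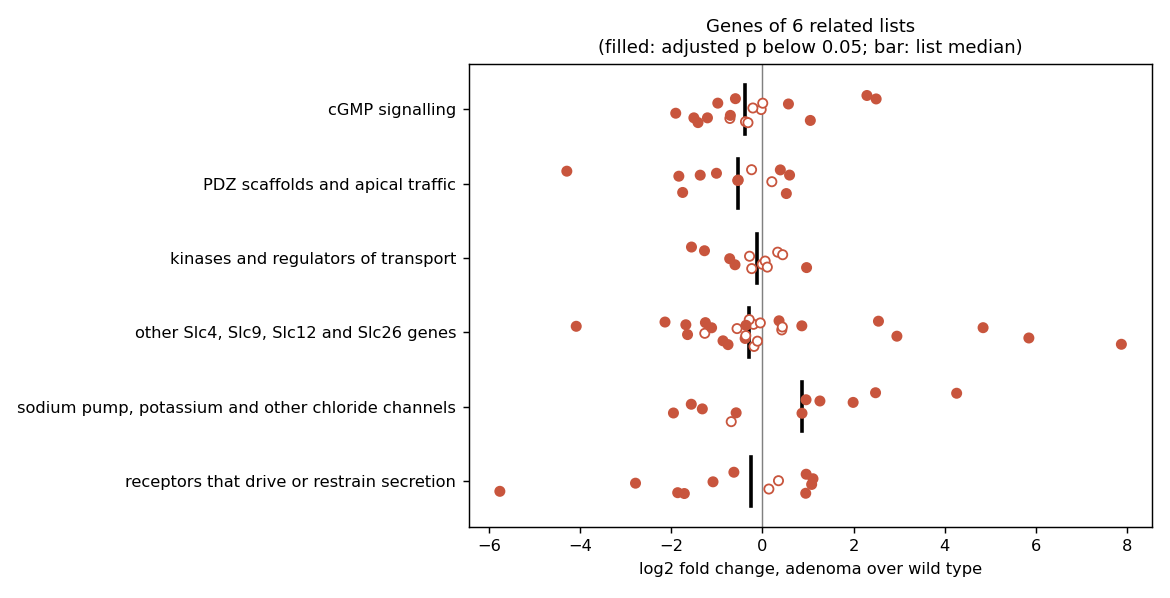
Log2 fold change of adenoma over wild type (x axis) for each tested gene of the 6 related lists, filled where the adjusted p was below 0.05, with a black bar at the median of each list. Medians run from -0.53 for the scaffolds to 0.87 for the pump and channels, points are spread vertically only for legibility, and the point farthest right is Slc26a9, whose fitted value rests on 3 wild-type counts and has no firm size.

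Per kilobase of exon, the order of the 10 levels changed between groups. In wild type Guca2b led with 680.4 ± 213 CPM per kb (SD, n = 3), then Guca2a with 174 ± 19.0, Gucy2c with 106 ± 13.8 and Slc26a6 with 55.9 ± 3.77, each clear of the next. Slc12a2, Slc26a3, Slc9a2, Cftr and Slc9a3 followed at 27.0 to 20.5 CPM per kb, with neighbours that overlapped, and Slc4a4 was last at 14.2 ± 0.879. In adenoma the ligands still had the highest means, at 98.8 ± 98.9 for Guca2b and 82.9 ± 55.5 for Guca2a (SD, n = 5), but overlapped each other and Gucy2c at 46.2 ± 14.9 CPM per kb. Slc12a2, Cftr and Slc9a3 came next at 30.9 to 29.1, and Slc26a6, Slc9a2, Slc26a3 and Slc4a4 last at 16.9 to 6.48. The step from Slc9a3 to Slc26a6 was the only one between neighbours without overlap in adenoma.

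For each gene the tested genes with the most similar profile were sought among 11624 candidates, by the root mean square difference of log2 CPM over the 8 libraries after centring. Closest to Gucy2c were Heph, a ferroxidase of iron export, at 0.10 and Kbtbd11 at 0.11. Slc26a3 was closest to Zzef1 (0.08) and Tstd3 (0.11), and Slc12a2 to Dab2ip (0.04) and Kif1bp (0.05). Hectd3 was among the genes most like Slc9a2, at 0.09. Profiles that swing widely had no such near match: the nearest to Guca2a were Pmp22 (0.37) and Prss30 (0.43), and to Guca2b Slc28a1, a nucleoside transporter, (0.42) and Trim38 (0.46). Slc26a6 was nearest to Nags (0.19) and Tm6sf2 (0.23), Slc4a4 to Ghrl, the gene of the hormone ghrelin, (0.24) and Ehhadh (0.25), Cftr to Elovl6 and Aldh1a2 (both 0.27), and Slc9a3 to Ppt1 and Ext1 (both 0.16). Among the 10 themselves the nearest pair was Gucy2c and Slc9a2 at 0.28, ahead of Slc9a3 and Slc12a2 at 0.30. These are descriptions over 8 libraries that share depth, group and adenoma 2.

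Adenoma 2 was below every other adenoma in 7 of the 10 genes and above them in 1, Slc12a2, where 36.3% and 36.6% of all tested genes had it below and above. The mean of the other 4 adenomas over adenoma 2 was 27.1 for Slc26a6, 13.7 for Guca2b, 7.77 for Cftr, 5.46 for Slc4a4, 2.48 for Gucy2c, 1.61 for Slc26a3 and 1.56 for Slc9a2. Guca2a and Slc9a3 were within the range of the other adenomas. The library thus combined almost no Slc26a6 and Guca2b with Guca2a, Slc9a3 and Slc12a2 at adenoma levels. These gaps stood beside its hindgut marker sum of 530 CPM, against 17.9 to 40.9 in the other adenomas and 65.8 to 100.2 in wild type. Their part in the gaps was not tested, and with 1 such library no comparison can be made.

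**Figure D4:**
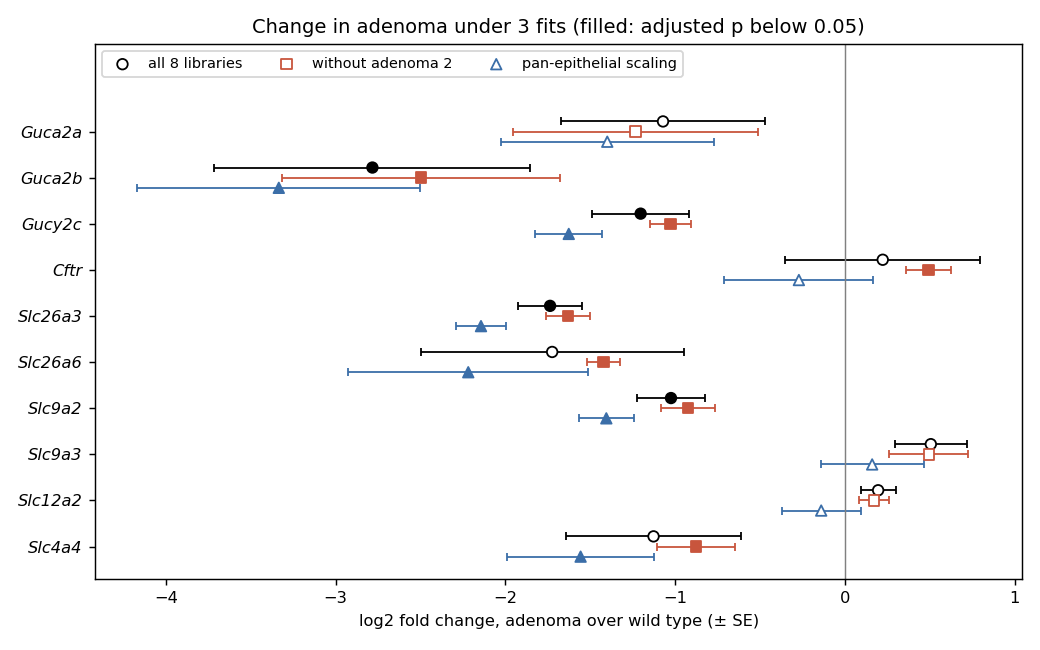
Log2 fold change of adenoma over wild type (x axis, with SE whiskers) for each of the 10 genes, from all 8 libraries (circles), without adenoma 2 (squares) and with libraries scaled on pan-epithelial markers (triangles), filled where the adjusted p was below 0.05. Slc26a3 keeps a narrow interval well below 0 in each, Cftr moves from 0.22 to 0.49 or -0.27, and leaving out adenoma 2 shortens the whiskers of Cftr, Slc26a6, Gucy2c and Slc4a4.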

How the data were processed

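RNA was extracted with Qiagen kits and made into unstranded TruSeq v2 libraries, read as paired ends, per the labels' protocols. The authors deposited raw counts per gene, made with TopHat2 and HTSeq on GRCm38 per the submitters' processing notes. Not given in the sources used here are tool versions, annotation and strand setting. Symbols and positions came from GENCODE M21 (37693 of 39179 genes named).

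Counts were fitted with edgeR 4.0.16 (filterByExpr, TMM scaling, robust quasi-likelihood test, Benjamini-Hochberg at 0.05), 3 wild-type against 5 adenoma libraries, after a test on simulated data, and glmTreat tested a log2 fold change of 1. The common biological coefficient of variation was 0.28. CPM values use TMM library sizes, and log2 ratios were compared by exact permutation. Libraries of a group differed by more than sampling noise, and each counted as 1 replicate. Alternatives were other scalings, filters, DESeq2 1.42.0, limma-voom (limma 3.58.1), a replicate block, a sex covariate and leaving out libraries. Pan-epithelial scaling with adenoma 2 left out was added after seeing the data.

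The 10 genes and all lists were chosen with earlier results of these data known. Named besides the 10 were up to 3 genes per list with the smallest adjusted p and a mean of at least 1 CPM, the leading gene of the minority direction, and the 2 genes most like each of the 10 (mean of at least 5 CPM), of which 1 is not reported here. Protein sequences were not used here.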

Additional observations from a re-analysis of the deposited data

Results flagged for a closer look

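In groups of 5 adenomas, 33 named genes and ratios were examined for a library whose gap to the nearest other exceeded 0.71 of the group's range (Dixon's criterion), which chance alone meets in about 1 in 20. It was met 8 times, each by adenoma 2. This library was lowest for Cftr (35.4 CPM), Slc26a6 (4.18 CPM), Pde10a (12.9 CPM) and Slc12a7 (81.4 CPM), and highest for Ano1 (149.6 CPM). The log2 ratio of Guca2a to Guca2b was highest there at 3.14, that of Slc26a3 to Slc26a6 highest at 2.98, and that of Cftr to Slc12a2 lowest at -3.32. These values share 1 library and are not independent of each other.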

How the results depend on the processing

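Of the 10 genes, Slc26a3 was called lower and Guca2a not called under all 20 alternatives, which over the 10 genes left 168 results with their direction and side of the threshold, took 11 below it and 14 past it, and turned the sign of 7. With all 8 libraries 5558 genes were called higher and 5099 lower. Genes called higher numbered 1694 with pan-epithelial scaling, where they were 24.0% of the calls against 52.2%, 3345 with the replicate block and 3074 with the sex covariate, and 2179 (with 9151 lower) with pan-epithelial scaling and adenoma 2 left out, an alternative chosen after seeing the data. Genes called lower numbered 3204 with the replicate block and 2298 with the sex covariate. Of the 10 genes, 1 was called lower with the sex covariate, and 1, Slc9a3, higher with total-count scaling, with no filter and with limma-voom. Called lower were 6 of the 10 with pan-epithelial scaling and without adenoma 2, and 5 with DESeq2. With no filter, and on leaving out any 1 wild type or adenoma 4, they were 3. Leaving out 1 library at a time gave 0 to 1 called higher. Cftr turned to -0.27 with pan-epithelial scaling, -0.45 with the replicate block and -0.11 with limma-voom, and Slc12a2 to -0.14 with pan-epithelial scaling. With that scaling and no adenoma 2, Cftr was -0.023, Slc9a3 -0.010 and Slc12a2 -0.33. None of these was called. The causes were not tested.

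Without 1 library at a time, the ratio difference ran from 1.29 to 2.46 for Guca2a to Guca2b, 1.17 to 1.98 for Slc9a3 to Slc9a2, -0.22 to 0.88 for Slc26a3 to Slc26a6 and -0.50 to 0.31 for Cftr to Slc12a2. With wild type 1 and adenoma 5 both left out the first became 2.10 and the second 1.12. Fewer libraries cannot reach 0.05 in the exact test (at best 0.0952 without a wild type, 0.0571 without an adenoma, 0.133 without both).

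No label says that library numbers pair the samples. Same-numbered deviations correlated at -0.02, 0.05 and 0.06, and unlike-numbered ones at -0.13 to 0.14, which cannot settle whether they do. With the replicate block, Guca2b was not called (-3.10, adjusted p = 0.105, edgeR) and Slc4a4 was (-1.88, adjusted p = 0.0461). Guca2b also lost its call with no filter (-2.72, adjusted p = 0.084) and without wild type 1 and adenoma 5 (-2.28, adjusted p = 0.125). Over 23 related genes, 19 chosen by rule and Prkg2, Slc9a3r1, Kcne3 and Fxyd3, 450 results kept their side and 8 lost a call, among them Slc9a3r1 with the sex covariate (-1.60, adjusted p = 0.118). At 18040301 to 28343915 counts per library, genes near the filter on low counts were left untested.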

Other observations

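Some related carriers were found almost only in adenoma 2, and were picked out after their values were seen. Atp12a, the colonic proton/potassium pump, read 65.0 CPM there and at most 0.305 CPM in any other library, and Best2, a bicarbonate-conducting anion channel, read 25.7 CPM there and at most 0.0865 CPM elsewhere. Neither passed the filter on low counts, so neither was tested. Pde9a, a cyclic GMP phosphodiesterase, read 212 CPM in adenoma 2, against 25.5 to 31.5 CPM in the other adenomas and 58.9 to 69.8 CPM in wild type.

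The potassium channel partner Kcne3 and the pump regulator Fxyd3 went with the genes called higher in the pump and channel list, and were also picked after their values were seen. Kcne3, the partner of Kcnq1 in basolateral potassium exit, read 47.2, 47.5 and 45.9 CPM in wild type and 209, 123, 179.8, 229.8 and 190.4 CPM in adenoma. Fxyd3 read 7.08, 6.47 and 7.53 CPM in wild type and 164, 44.9, 118, 201 and 148 CPM in adenoma. In both genes every adenoma lay above every wild type, and adenoma 2 was the lowest adenoma.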
